A study of Mus musculus with 35 samples.

Results

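Open chromatin of haematopoietic progenitor cells (HPCs) was compared between the fetus and postnatal day 7 (P7) by ATAC-seq, an assay that marks accessible DNA with the transposase Tn5. The comparison used 6 of the 35 libraries of the study: 3 of fetal HPCs at E16.5 (late gestation) and 3 of P7 HPCs. Each group was represented by 1 peak list made from its libraries, so there was n = 1 list per group and replicates cannot be compared. In each list, touching or overlapping peaks on chromosomes 1 to 19 and X were merged into regions. Regions of the 2 lists that overlapped by 1 bp or more counted as shared. The rest were called fetal-only or P7-only, and together list-specific. These names refer to the 2 lists compared and not to an age as such. The fetal list held 90464 regions and the P7 list 78874.

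All mice of the study were of the B6 background. The labels of these 6 libraries give the cell type and age but no genotype field, tissue or sorting gate, and nothing states that replicates came from separate animals. The other 10 lists served as an outside view. Set 1 also held HPCs at P14 (2 libraries), P21 (2) and 8 weeks (adult, 3), and haematopoietic stem cells (HSCs) of the fetus (3), P14 (3) and the adult (5). The titles of all adult HPC and HSC libraries carry WT, for wild type. Set 2 held separate P7 libraries of wild-type HPCs (3) and HSCs (3), and of HPCs (3) and HSCs (2) whose genotype label is Infnar_KO. The series text writes this knockout as Ifnar, a name used for the type I interferon receptor, and 1 knockout HPC title carries the code of a wild-type library. In set 2 the HPC titles read 48+LSK.

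The labels and lists of set 1 did not fully match. The descriptions of 2 of the 3 fetal HPC libraries named the fetal HPC list, and the other named the P21 HPC list. Of the 3 P7 HPC libraries, 2 named the P7 list and 1 the fetal HPC list, and 1 P14 HPC library named the P7 list. The P14 and P21 HPC and P14 HSC libraries named lists of other groups throughout, as did 3 of the 5 adult HSC libraries. Each list was therefore taken by the group name it carries. The descriptions of the adult HPC, fetal HSC and set 2 libraries all named their own list, so values in those lists do not rest on this choice. Because libraries were pooled, no result could be repeated without the library whose description differed.

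HPCs are the immediate descendants of HSCs and give rise to lymphoid, myeloid, erythroid and megakaryocytic cells. Haematopoiesis in late gestation is known for the Lin28b and Igf2bp programme and for expression of imprinted growth genes, which decline after birth, whereas lymphoid output and immune sensing build up around and after birth. Accessible regions away from promoters are largely enhancers and differ more between cell states than promoters do.

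Every defining progenitor gene with a promoter sequence at hand was open at its promoter in both lists. These were Kit, Cd34, Flt3, Cd48, Ptprc, Runx1 and Myb, 7 of 7, against 63.5% of all 17273 genes in fetal and 60.9% in P7 HPCs. Of 23 promoters of HSC regulators and markers, 21 were called in fetal and 22 in P7 HPCs. Promoters of markers of other cell types ranged from closed to mostly open. In either list 2 of 13 T and NK cell and 5 of 12 B cell promoters were called, and 3 and 2 of 13 macrophage promoters in fetal and P7 HPCs. No hepatocyte promoter of 11 was called in fetal HPCs, and 1, of Apob, was called in P7 HPCs at a -log10 p of 86.1. Of 10 endothelial promoters, 9 were called in fetal and 7 in P7 HPCs, and of 10 stromal ones 5 in each. Erythroid and megakaryocytic promoters were called in 8 and 7 of 15 cases, and those of non-haematopoietic regulators in 7 and 5 of 12. The part of other cells in the results was not tested. In bulk lists, a region open in fewer cells and a region less open in each cell cannot be told apart.

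Regions were ranked by the -log10 p that the authors' peak caller gave, and a region was strong in the upper 50% of its own list. The scale of -log10 p differed between lists. The median region stood at 29.2 in P7 HPCs of set 1, the lowest, and 87.1 in wild-type P7 HPCs of set 2, the highest. In fetal and adult HPCs it stood at 39.2 and 57.3. A higher value in another list is therefore not by itself a more open region. Few promoters lay under a strong region of only 1 of the 2 lists. Sequences of some are shown because the values below refer to motifs and CpG content in such promoters. With regions of any strength, 629 of 17273 genes had a promoter called in fetal HPCs alone and 190 in P7 HPCs alone. A strong P7-only region lay over 10 of 21044 promoter windows (0.0475%) and a strong fetal-only region over 126 (0.599%), each window running from 250 bases before to 50 bases after a RefSeq start on GRCm38.p6. Printed are the 250 bases before the start, read along the gene, with searched motifs in capitals. Isg15 and Ifi206 carry an interferon response element, searched as GAAA, any 2 bases and GAAA again. Il18 carries a RUNX motif, AACCACA on this strand, and the MYB motif in 2 places, and Spic carries an ETS motif. The Peg3 window, which overlaps the divergent start of Usp29, holds none of the 14 motifs searched in the stretch shown, and Icam4 carries a GATA motif, TTATCT, and the PAR bZIP motif TTACGTAA.
Isg15 (P7-only, chr4:156200819-156201068, minus strand): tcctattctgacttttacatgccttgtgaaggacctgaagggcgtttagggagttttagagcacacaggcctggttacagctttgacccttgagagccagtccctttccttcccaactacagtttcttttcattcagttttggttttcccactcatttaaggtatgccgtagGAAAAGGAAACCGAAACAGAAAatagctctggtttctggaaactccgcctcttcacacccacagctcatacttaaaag
Ifi206 (P7-only, chr1:173491319-173491568, minus strand): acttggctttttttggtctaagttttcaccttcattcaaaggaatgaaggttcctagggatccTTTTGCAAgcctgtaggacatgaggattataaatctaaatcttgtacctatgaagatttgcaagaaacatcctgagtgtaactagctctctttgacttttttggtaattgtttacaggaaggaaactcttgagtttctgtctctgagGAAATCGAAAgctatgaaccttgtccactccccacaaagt
Il18 (P7-only, chr9:50554450-50554699, plus strand): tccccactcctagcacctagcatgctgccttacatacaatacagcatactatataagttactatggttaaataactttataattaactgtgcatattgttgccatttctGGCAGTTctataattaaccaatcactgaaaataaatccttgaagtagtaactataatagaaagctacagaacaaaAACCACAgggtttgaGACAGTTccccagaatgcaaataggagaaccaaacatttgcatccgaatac
Spic (P7-only, chr10:88683024-88683273, minus strand): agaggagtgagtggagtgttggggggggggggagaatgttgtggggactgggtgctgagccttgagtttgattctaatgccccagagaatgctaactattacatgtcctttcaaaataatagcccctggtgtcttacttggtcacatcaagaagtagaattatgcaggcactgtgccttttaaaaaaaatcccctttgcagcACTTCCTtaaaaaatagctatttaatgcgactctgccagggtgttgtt
Peg3 (fetal-only, chr7:6730420-6730669, minus strand): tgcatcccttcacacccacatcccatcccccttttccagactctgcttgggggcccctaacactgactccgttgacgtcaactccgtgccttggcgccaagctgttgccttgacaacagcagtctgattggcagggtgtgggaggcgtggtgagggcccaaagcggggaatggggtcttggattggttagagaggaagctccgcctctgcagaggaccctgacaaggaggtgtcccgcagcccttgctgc
Icam4 (fetal-only, chr9:21029182-21029431, plus strand): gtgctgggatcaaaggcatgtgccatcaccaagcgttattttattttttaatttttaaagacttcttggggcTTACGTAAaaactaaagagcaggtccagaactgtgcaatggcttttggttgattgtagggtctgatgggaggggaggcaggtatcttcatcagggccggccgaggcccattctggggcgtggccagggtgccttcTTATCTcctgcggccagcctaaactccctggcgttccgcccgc

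In the fetal list, 26534 regions (29.3%, exact 95% interval 29.0 to 29.6) had no counterpart at P7, and in the P7 list 14247 (18.1%, 17.8 to 18.3) had none in the fetus. Among strong regions the shares were much smaller. Of 45232 strong fetal regions, 2879 were fetal-only (6.36%, 6.14 to 6.59). Of 39725 strong P7 regions, 945 were P7-only (2.38%, 2.23 to 2.53). The limit for a strong region was a -log10 p of 39.2 in the fetal list and 29.2 in the P7 list. The list-specific regions nearest to it stood at 39.18 inside and 39.16 outside in the fetal list. In the P7 list they stood at 29.23 and 29.22.

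Part of the excess on the fetal side went with the length of the fetal list. With the fetal list reduced to its 78874 strongest regions, 17852 fetal regions (22.6%) and 16886 P7 regions (21.4%) stood alone. Among strong regions, 1734 (4.40%) were fetal-only and 1154 (2.90%) P7-only, so that the fetal side stayed ahead and the ratio narrowed. The Jaccard index, the shared part of all merged regions, was 0.612 as deposited and 0.639 at equal length.

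**Figure D1:**
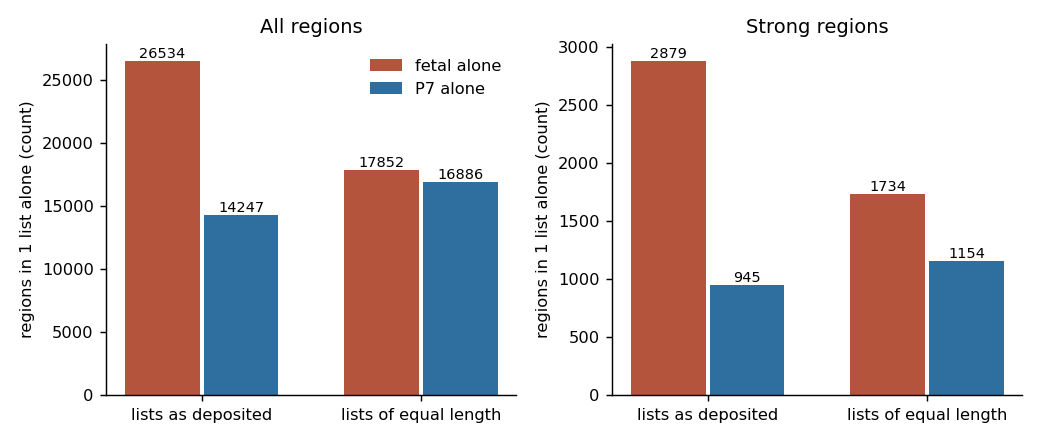
Regions called in fetal HPCs alone (red) and in P7 HPCs alone (blue), as counts from 1 list per group, for all regions and for strong regions. Equal list length brought 26534 against 14247 to 17852 against 16886, and 2879 against 945 strong regions to 1734 against 1154.

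Both kinds of list-specific region lay mostly away from genes' ends. Within 1 kb of either end of a protein-coding gene were 8.61% (7.61 to 9.70) of fetal-only and 5.61% (4.23 to 7.27) of P7-only strong regions, against 28.1% and 27.8% of shared ones on the fetal and P7 side. Fetal-only regions lay inside a gene but away from its ends in 44.1% and P7-only regions in 46.8%. Fetal-only regions were found in genes longer than 500 kb in 7.99% (7.02 to 9.04), against 4.51% of shared fetal regions, whereas P7-only regions were there in 4.44% (3.22 to 5.96), against 4.31% of shared P7 regions. List-specific regions were also weaker than shared ones. Their median -log10 p was 51.6 against 97.6 in the fetal list and 36.2 against 63.9 in the P7 list. By chromosome, the fetal-only share ran from 5.18% of strong regions on chromosome 15 to 7.77% on chromosome 14. The P7-only share ran from 1.73% on chromosome 8 to 3.80% on chromosome 15.

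The separate P7 libraries of set 2 were not used to choose these regions and held the 2 kinds to different degrees. Of the P7-only strong regions, 76.5% (73.7 to 79.2) were called again in wild-type P7 HPCs of set 2, against 90.2% of shared strong P7 regions. Of the fetal-only regions, 31.3% (29.6 to 33.0) were called there although the P7 list of set 1 lacked them, against 85.1% of shared fetal regions. Strength in the list did not close this gap. When strong fetal regions were split into 5 classes of equal size by -log10 p, 26.9% to 35.7% of fetal-only regions were called in set 2, against 71.7% in the weakest and 98.7% in the strongest class of shared regions. P7-only regions followed shared regions of like strength, with 71.5% against 76.9% in the weakest class and 81.5% against 84.8% in the next.

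**Figure D2:**
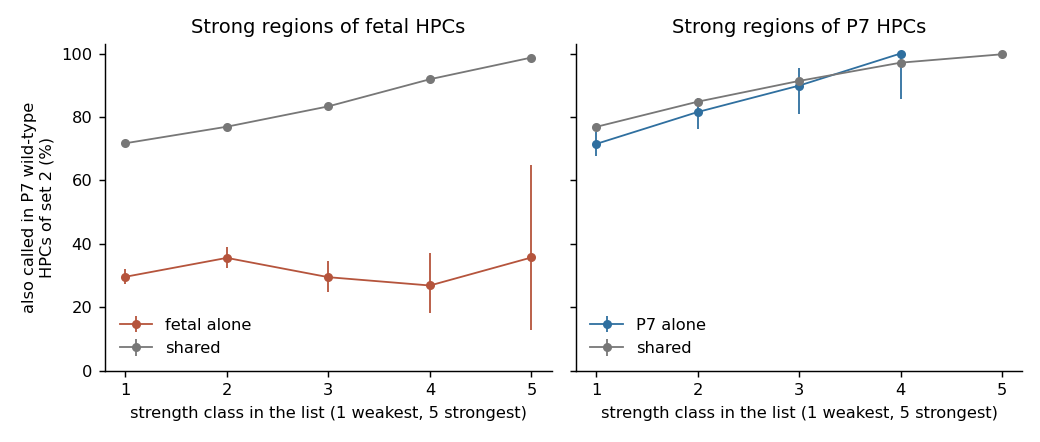
Share of strong regions also called in wild-type P7 HPCs of set 2, in percent, by class of -log10 p within the fetal list (left) and the P7 list (right), with exact 95% intervals that cover counting error only. Fetal-only regions (red) stay between 26.9% and 35.7%, far under shared regions (grey), while P7-only regions (blue, none in the strongest class) lie near shared ones.

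Most P7-only regions were also called at later ages, and every share lay under that of shared strong P7 regions, which had the higher median -log10 p. Of the 945, 96.3% (94.9 to 97.4) were called in P14, 81.4% (78.7 to 83.8) in P21 and 92.7% (90.8 to 94.3) in adult HPCs, against 99.6%, 96.2% and 99.2% of shared regions. In all, 940 were in at least 1 of these lists. The share called in all 5 other postnatal HPC lists was 49.4% (467 regions), against 83.1% of shared regions. In fetal HSCs 62.4% (59.3 to 65.5) of P7-only regions were called, against 95.4% of shared ones. In the HSC lists after birth the shares were 33.4% in wild-type and 30.3% in knockout P7 HSCs, 61.8% at P14 and 70.5% in the adult. The corresponding shares of shared P7 regions were 75.6%, 72.7%, 89.3% and 95.4%.

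Fetal-only regions had a mixed later course. In fetal HSCs 75.4% (73.8 to 77.0) of the 2879 were called, against 96.6% of shared strong fetal regions, which had the higher median -log10 p. In P14, P21 and adult HPCs the shares were 59.8% (58.0 to 61.6), 44.1% (42.3 to 45.9) and 55.4% (53.5 to 57.2), against 98.5%, 93.3% and 97.2% of shared regions. At least 1 of these later HPC lists held 2067 regions (71.8%) that the P7 list lacked, against 99.5% of shared ones. None of the other 5 postnatal HPC lists held 670 of them (23.3%, against 0.437% of shared regions), and none of the other 9 postnatal lists of either cell type held 428 (14.9%), of which 221 were called in fetal HSCs. At the other end, 458 (15.9%, against 77.3% of shared regions) were in all 5 other postnatal HPC lists and were missing from the P7 list of set 1 alone among postnatal HPCs. Lists differ in length, from 42459 to 91043 regions.

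**Figure D3:**
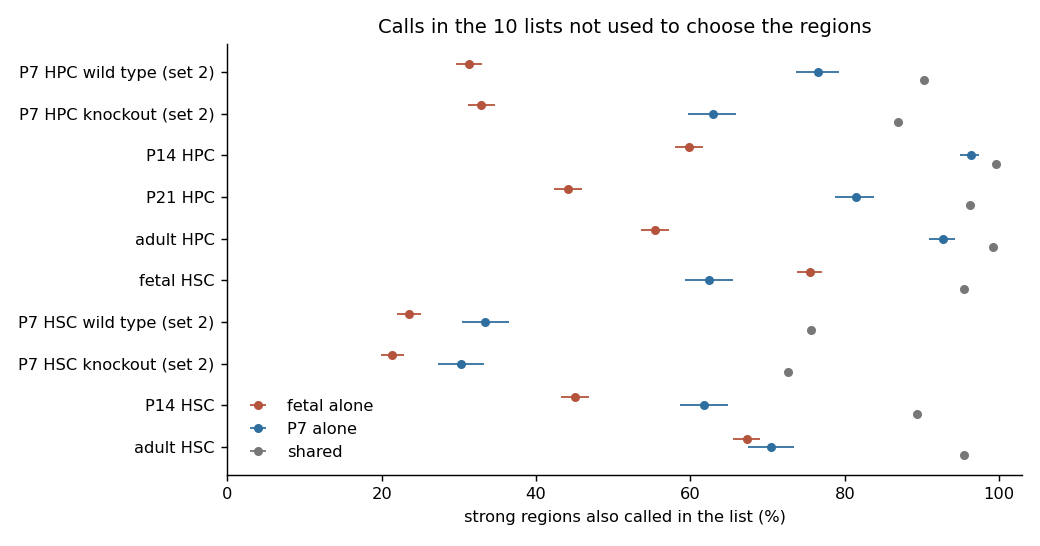
Share of strong regions also called in each of the 10 lists that did not choose them, in percent with exact 95% intervals (counting error only), for fetal-only (red), P7-only (blue) and shared strong P7 regions (grey). P7-only regions reach 96.3% in P14 and 92.7% in adult HPCs, while fetal-only regions are called most in fetal HSCs (75.4%).

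The strongest fetal-only regions lay near genes of several lineages. The first was at an end of Cd226, a receptor of T and NK cells (chromosome 18, -log10 p 316), and was called elsewhere in P21 HPCs (28.8) and adult HSCs (41.2). A region 10.1 kb from Timd4, a phosphatidylserine receptor of macrophages (chromosome 11, 46800060 to 46800669), stood at 242. It was absent from all 5 P7 lists and called in P14 (97.9), P21 (43.9) and adult HPCs (96.0).

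Lmo1, which encodes a LIM-domain transcriptional cofactor, had a region 23.2 kb away (chromosome 7, 109114820 to 109115329) with more calls in HSC than in postnatal HPC lists. It stood at 194 in fetal HPCs and was missing from the HPC lists of P7 in both sets, P14, P21 and the adult, apart from the knockout (39.2). HSC lists held it at 122 in the fetus, 19.3 in wild-type P7 HSCs, 100 at P14 and 405 in the adult, and the knockout HSC list lacked it. Rap1a, a small GTPase of integrin signalling, Ccng1, a cyclin, and Olfr979, an olfactory receptor, were nearest to regions at 225, 234 and 209, which all 3 later HPC lists also held. Of the 12 strongest fetal-only regions, 2 were called in all 10 lists that did not choose them, and the others in 2 to 6.

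The strongest P7-only regions were more uniform. The leading one lay inside a gene 25.6 kb from an end of Dtnb, a dystrobrevin gene (chromosome 12, 3759365 to 3759880), with a -log10 p of 114 in P7 HPCs of set 1, 471 and 308 in wild-type and knockout HPCs of set 2, and 225 in fetal HSCs. Fetal HPCs were the single list without it. The same held for the regions near Aplp2, an amyloid precursor-like protein (94.9), Mgat4b, a glycosyltransferase (87.2), and Mark1, a kinase of microtubule-associated proteins (80.3). Regions near Pdlim5 (98.3), Mbd2, a reader of methylated DNA (83.5), and Pik3cb, a catalytic subunit of PI3-kinase (82.0), were called in every postnatal HPC list and in neither fetal list. In adult HPCs these 3 stood at 564, 393 and 306. Nos1, which encodes neuronal nitric oxide synthase, had a region of the same pattern at 82.2 (129 in adult HPCs), and Tcof1, a gene of ribosome biogenesis, one at 87.2 (610). Each of the 12 strongest P7-only regions was called in 6 to 10 of the 10 lists that did not choose them.

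**Figure D4:**
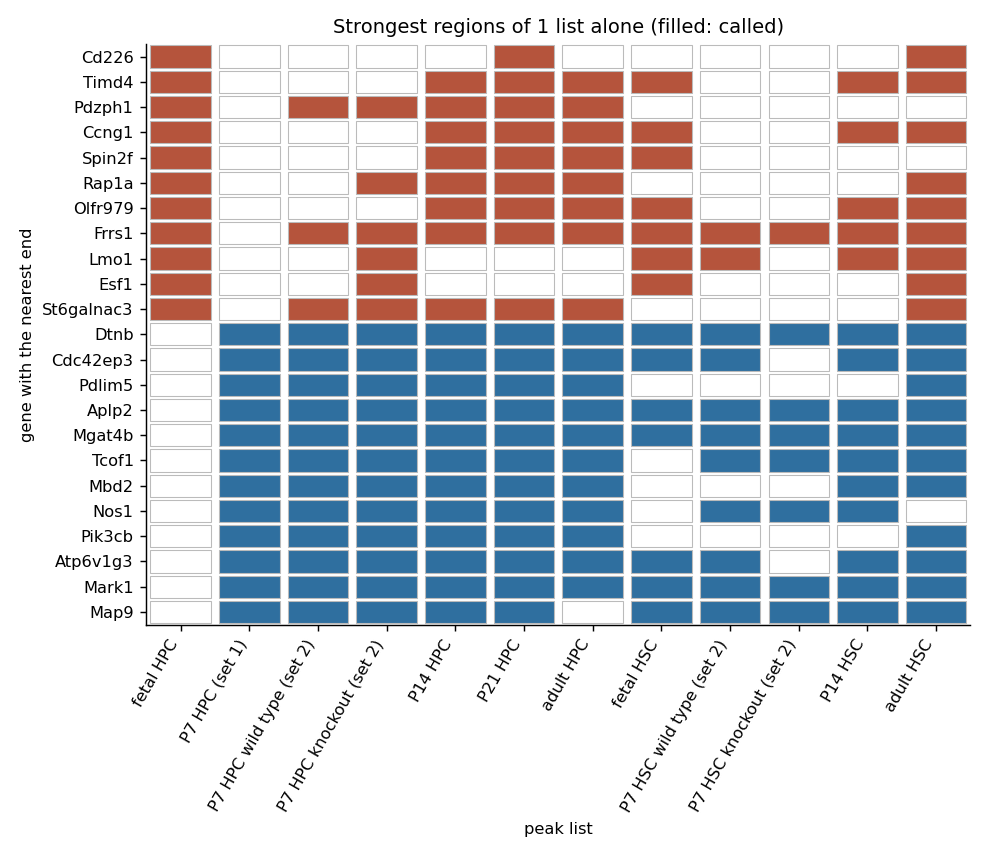
Calls of 11 of the 12 strongest fetal-only regions (red) and the 12 strongest P7-only regions (blue) in the 12 peak lists, 1 row per region named after the closest protein-coding gene. A filled cell is a call; P7-only rows are filled in nearly all HPC lists after birth, and fetal-only rows are filled in patches.

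By count per Mb, P7-only regions were most numerous in 2 stretches, which were picked out after their values were seen. On chromosome 17 between 79 and 80 Mb, 7 of 25 strong P7 regions (28.0%, 12.1 to 49.4) were P7-only, against 2.38% genome-wide. Stretches with fewer P7-only regions reached higher shares, as on chromosome 11 between 99 and 100 Mb, with 3 of 9 (33.3%). The 7 P7-only regions on chromosome 17 lay nearest to Prkd3, Cdc42ep3, Rmdn2 and Hnrnpll, a splicing regulator of lymphocytes. The region nearest Hnrnpll with the higher value, at 36.1 in set 1, was at 119 in wild-type P7 HPCs of set 2. The other stretch, on chromosome 12, was the cluster of immunoglobulin heavy chain V segments, the gene segments that B cell precursors join to build antibodies.

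Across the 183 V segments of the heavy chain (chromosome 12, 113572929 to 116009954), P7 HPCs had 104 regions and fetal HPCs 90. Of 50 strong P7 regions there, 10 were P7-only (exact 95% interval 10.03% to 33.7%), and of 34 strong fetal regions 3 were fetal-only (8.82%, 1.86 to 23.7). The 10 P7-only regions were called again in 8 cases in wild-type P7 HPCs of set 2, in 7 in knockout HPCs, in 10 at P14, and in 8 each at P21 and in the adult. Both P7 HSC lists and the P14 HSC list held none of them, fetal HSCs held 1 and adult HSCs 7. Those over Ighv1-12 (chromosome 12, 114615671 to 114616174) and Ighv1-27 (114804418 to 114805127) were the strongest, at 79.2 and 77.1, and occurred in all HPC lists after birth and in no HSC list. Many V segments are near-identical copies, so that the segment a read came from is uncertain. The kappa chain V cluster went the other way, with 54 fetal and 27 P7 regions, of which 6 and 0 were strong and list-specific.

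**Figure D5:**
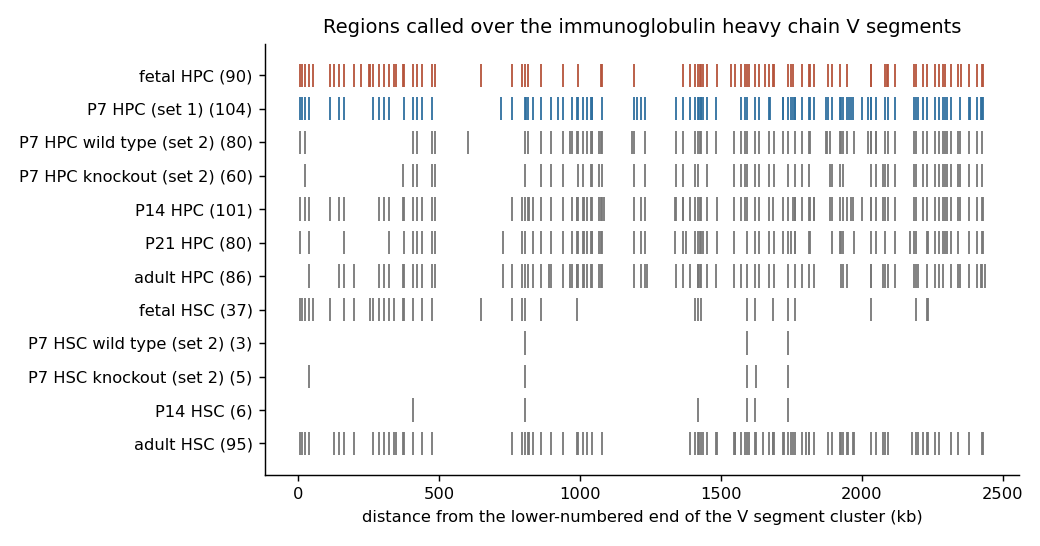
Regions called in each of the 12 lists over the heavy chain V segments, by distance in kb from the lower-numbered end of the cluster, with the number of regions in brackets. P7 HPCs (blue) hold 104 regions and fetal HPCs (red) 90. Among HSC lists, those of P7 and P14 hold 3 to 6, fetal HSCs 37 and adult HSCs 95.

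Gene by gene, strong regions were counted in the gene body and 10 kb on each side. Of 16454 genes with a strong region, 1727 (10.5%) had more fetal-only and 536 (3.26%) more P7-only ones. At equal list length these shares were 6.54% and 4.40%. With the set 2 list at equal length they were 10.02% and 14.2%, so that all genes leaned to P7 there, and counts of members under that setting stand against these shares. The 10 genes with the largest fetal excess were all long: Lsamp (6 fetal-only regions, none P7-only), Kirrel3 (5) and Nrg1, Auts2, Erc2, Frmd4a, Cdh4, Tenm4, Csmd1 and Epha6 (4 each). They span 457 to 2197 kb, and 9 of them exceed 500 kb, a length that 226 of 21627 protein-coding genes exceed. A longer window can hold more regions of any kind. Of their 43 fetal-only regions, 3 were called in wild-type P7 HPCs of set 2, 21 at P14, 7 at P21, 20 in adult HPCs, 37 in fetal HSCs and 21 in adult HSCs. Among all 2879 fetal-only regions the shares in these lists were 31.3%, 59.8%, 44.1%, 55.4%, 75.4% and 67.3%. Csmd1, a complement regulator of the brain, was the extreme: its 4 regions, at 101, 80.9, 68.8 and 41.8 in fetal HPCs, were called in fetal HSCs (129, 60.3, 95.97 and 47.1) and in no list after birth.

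The 10 genes with the largest P7 excess were shorter, from 45.3 to 1004 kb. They were led by Inpp5a, an inositol phosphatase, Pard3b, a polarity gene, Slc39a11, a zinc transporter, Nsmce2, a SUMO ligase of DNA repair, and Ctnnd2, a catenin, each with 3 P7-only regions and none fetal-only. Of the 27 P7-only regions in these windows, 21 were called in wild-type P7 HPCs of set 2, 27 each at P14 and in the adult, and 19 in fetal HSCs, close to the shares of all 945 P7-only regions (76.5%, 96.3%, 92.7% and 62.4%). Those of Ctnnd2 reached 123, 254 and 85.6 in adult HPCs, and 2 of the 3 were missing from set 2.

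Genes of the fetal programme leaned to the fetus in set 1. Of 16 members with a strong region, 5 had more fetal-only regions (background 10.5%) and none more P7-only ones (3.26%): Igf1r, Hbb-y, Trim71, Plagl1 and Lin28b. The Lin28b region (chromosome 10, 45473675 to 45474051) stood at 50.99 in fetal HPCs and 37.97 in fetal HSCs and was in no list after birth. Hbb-y, an embryonic globin gene, had a region at 51.5 that P21 HPCs (18.8) and adult HSCs (45.6) also held. Hmga2 and Igf2bp3 had shared strong regions (5 and 3) and no list-specific one. Igf2 and Igf2bp1 had no strong region of any kind and are not among the 16. At equal list length the counts were 4 and 1 (all genes 6.54% and 4.40%). The lean was not seen with the set 2 list at equal length, where 3 members had more fetal-only and 5 more P7-only regions (all genes 10.02% and 14.2%), and near gene ends it was 0 against 1.

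Imprinted genes, which are expressed from 1 parental copy, leaned the same way, with 5 of 14 members against none (all genes 10.5% and 3.26%). They were Asb4, Peg3, Usp29, Plagl1 and Grb10. Peg3 and Usp29 were both counted through a shared region, and Plagl1 is also a member of the fetal programme list. At equal list length the counts were 4 and 0 (all genes 6.54% and 4.40%). With the set 2 list they were 5 and 0 (all genes 10.02% and 14.2%). The region over the shared promoter of Peg3, an imprinted zinc finger gene, and Usp29 (chromosome 7, 6730370 to 6730659), printed above, stood at 89.0 in fetal HPCs and 95.3 in fetal HSCs. It was missing from every P7 and P14 list and was called at P21 (118) and in adult HPCs (265) and HSCs (18.1). A second region by Usp29 (chromosome 7, 6835203 to 6835877) was at 40.4 in fetal HPCs and 175 in fetal HSCs, and after birth only adult HSCs held it, at 13.2. The Plagl1 region, at 73.7 in fetal HPCs, was called again at 46.6 in wild-type P7 HPCs of set 2. That of Asb4, at 50.5, was in no P7 list and was called in P14 (40.3), P21 (29.7) and adult HPCs (45.5).

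Innate and cytokine receptors leaned to P7: of 20 members, 4 had more P7-only and none more fetal-only regions (all genes 3.26% and 10.5%). The counts were the same at equal list length (all genes 4.40% and 6.54%). With the set 2 list at equal length the counts were 7 and 0, where 14.2% of all genes had more P7-only regions. The 4 were Lepr, the leptin receptor, Tnfrsf1b, a receptor for tumour necrosis factor, Nod2, a sensor of bacterial cell wall fragments, and Myd88, the adaptor of Toll-like receptors. The Myd88 region (chromosome 9, 119328587 to 119329114) stood at 35.2 in P7 HPCs of set 1, 186.5 and 133 in wild-type and knockout HPCs of set 2, and 24.02 in fetal HSCs. Tnfrsf1b had a region at 35.9 that set 2 wild-type HPCs held at 183. Nod2 had 2 regions, at 29.4 and 30.4, near the limit for strong regions, and set 2 wild-type HPCs held them at 38.6 and 51.3. The Lepr region was the strongest of the 5, at 60.1. Both set 2 HPC lists and P21 HPCs lacked it, and P14 and adult HPCs held it (122 and 140). By nearest gene end, the Myd88 region belonged to Oxsr1 and the second Nod2 region to Cyld. All 5 regions of these genes were called in fetal HSCs.

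Type I interferon-stimulated genes had 3 of 25 members on each side (all genes 10.5% fetal and 3.26% P7). Ifih1, Ifit1 and Xaf1 had more fetal-only regions, and Ifi44, Isg15 and Ifi47 had more P7-only ones. Because the shares of all genes were unequal, equal counts do not show that a lean was absent. At equal list length the counts were 2 fetal and 3 P7 (all genes 6.54% and 4.40%). With the set 2 list at equal length, 8 members had more P7-only and none more fetal-only regions, where all genes stood at 14.2% and 10.02%. At the Isg15 promoter the region stood at 29.9 in P7 HPCs of set 1, just above the limit of 29.2, and at 28.7 in wild-type HPCs of set 2. It was called in later HPCs (32.2 at P14, 14.1 at P21 and 51.0 in the adult) and in wild-type P7 HSCs (33.98), and in neither fetal list and neither knockout list. The region at the Ifi206 promoter, at 38.9 in set 1 and 76.4 in wild-type HPCs of set 2, was in neither fetal list and neither knockout list. Wild-type P7 HSCs and P14 HSCs lacked it too, so its absence from knockout HSCs sets them apart from no other P7 HSC list. In both promoters the interferon response element lies under the region, at positions -78, -72 and -66 from the Isg15 start and -40 from the Ifi206 start. On either strand it occurred in 2 of 10 P7-only promoter windows, against 3.38% of all 21044 windows. The knockout as a whole did not separate the 2 kinds of region: of those called in wild-type P7 HPCs of set 2, 22.5% of fetal-only and 22.4% of P7-only ones were missing in knockout HPCs, against 6.85% and 6.33% of shared ones.

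Among lineage genes, counts were small and mixed. They stand against 10.5% of all genes with more fetal-only and 3.26% with more P7-only regions. At equal list length the shares of all genes were 6.54% and 4.40%. HSC regulators and markers had 4 members with more fetal-only regions (Tek, Etv6 and Meis1 among them) and 2 with more P7-only ones (Mllt3 and Erg) of 28. At equal list length these counts were 3 and 3, and with the set 2 list 2 and 7 (all genes 10.02% and 14.2%). Mecom and Hlf had no list-specific strong region, and Prdm16 had 1 of each kind. Erythroid and megakaryocytic genes had 4 against 1 of 18 (Ank1, Zfpm1, Fli1 and Gata1 against Pf4), which became 1 against 2 at equal list length. The myeloid programme had 3 against 1 of 18, 1 against 1 at equal list length, and 1 against 6 with set 2, where 14.2% of all genes had more P7-only regions. S100a8 and S100a9, which encode 2 subunits of calprotectin and are neighbours, lay on opposite sides, with a fetal-only region at 49.1 and a P7-only region at 35.2.

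B cell markers had 3 members on each side of 13 (23.1% each). All genes stood at 10.5% fetal and 3.26% P7, and at 6.54% and 4.40% at equal list length. Ebf1, a factor that commits cells to the B lineage, had 2 P7-only regions, at 32.3 and 43.4, and none fetal-only. With set 2 at equal length Ebf1 had 1 more fetal-only region than P7-only ones. Bank1, Cd79a and Btk had fetal-only regions, and that of Btk (75.4) was called at 107 in wild-type P7 HPCs of set 2. Lymphoid priming had 1 of 21 members on each side. Ikzf1, a lymphoid master factor, had 2 fetal-only regions, of which the stronger (chromosome 11, 11729045 to 11729560, 76.2) was in no other list. Dntt, Flt3 and Il7r had no list-specific strong region. T and NK cell markers had 2 against 0 of 10 (Cd3g and Cd226), and macrophage markers 3 against 2 of 10 (Siglec1, Trem2 and Adgre1 against Spic and Vsig4), which became 2 against 2 at equal list length.

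The remaining lists stand against the same shares of all genes, 10.5% fetal and 3.26% P7 (6.54% and 4.40% at equal list length). Of these lists, MHC and antigen presentation had 2 against 1 of 17. Fetal-only regions lay by H2-Aa (58.2) and in H2-Eb1 (54.96), and the first was also counted for H2-Eb1. Wild-type P7 HPCs of set 2 held them at 36.96 and 119.7. Both were in all 5 postnatal HPC lists other than P7 of set 1. A P7-only region by Ciita, the master regulator of class II genes, stood at 42.4 (chromosome 16, 10515964 to 10516760). In wild-type P7 HPCs of set 2 it stood at 101.9. Homing receptors had 1 against 2 of 15 (0 against 3 at equal list length), with S1pr1, which guides exit into the blood, on the P7 side. Immediate early genes had 2 against 1 of 20, and cell cycle genes 1 against 1 of 24 (0 against 2 at equal list length). On the fetal side was Cdk6, the kinase that drives progenitors into the cycle, with a region at 44.8. All 5 other postnatal HPC lists held that region, at 16.9 to 41.4, and fetal HSCs lacked it. Endothelial markers had 1 against 0 of 14, stromal markers 0 against 1 of 15, non-haematopoietic regulators 2 against 0 of 11, and hepatocyte markers 0 against 0 of 12. For every list and for all genes the median difference per gene was 0.

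Fetal-only promoter windows held a median of 13 CpG dinucleotides, the same as all 21044 windows. The P7-only windows held 3, as did uncalled windows, and windows under a shared region held 22. The 10 P7-only windows belonged to 9 genes: Cisd3, Bco2, Il18, Ifi206, Spic, Rinl, Sh2d1b1, Isg15 and Emp1. Il18, a cytokine that acts with interferon gamma, and Bco2 share 1 region (chromosome 9, 50554582 to 50555268), at 40.1 in P7 HPCs of set 1 and 223 in wild-type HPCs of set 2, and present in every list but fetal HPCs. Sh2d1b1, a signalling adaptor of NK cells, had a region at 31.6 that all 5 other postnatal HPC lists held, at 56.9 to 137, and no HSC list held. Spic, which specifies red pulp macrophages, had one at 32.8, and fetal HSCs held it at 32.5.

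Fetal-only promoters belonged to 116 genes. Ackr1, an atypical chemokine receptor of erythroid cells and venules, had a region at 85.2 that the postnatal HPC lists other than the knockout (37.1) lacked and adult HSCs held at 261. Icam4, a blood group adhesion molecule of erythroid cells, had a region at 69.1 that every list but P7 HPCs of set 1 held, at 34.9 to 165. The GATA motif AGATAA, read on either strand, occurred in 10.3% of fetal-only windows, against 5.48% of windows under shared regions, 16.2% of uncalled windows and 9.68% of all windows.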

How the data were processed

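ATAC-seq libraries were tagmented with Tn5, per the labels' protocols. Bowtie2, MACS2 and mm10 (GRCm38) are named per the submitters' processing notes; no source used here gives versions, pooling or read depth. The deposited peak lists give per peak a score, a fold (ratio) over background, and a -log10 p and -log10 q. These are the authors' values and only ranked or described peaks within a list. Values of 1 region in several lists are printed side by side without adjustment for the scale of each list. Score and -log10 q were not used. Lists of set 1 begin at a -log10 p of about 1, those of set 2 at about 2.

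Overlaps were computed with pandas 2.3.3 and NumPy 2.4.6 in Python 3.11.15 and checked against bedtools 2.31.1 and on simulated data. Intervals are exact Clopper-Pearson (SciPy 1.17.1) and cover counting error only; fragments without molecular identifiers are not independent. No p-value was computed. Genes came from a RefSeq table of GRCm38.p6 without strand or exons, and 368 of 370 distinct members of 19 gene lists matched. No genome sequence was used, so the planned motif search ran on RefSeq promoter windows instead.

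The comparison, members and lists were chosen with earlier results of these data known. Named were the 12 strongest list-specific regions per direction, the 10 genes with the largest excess, up to 4 members per list and some genes always. Some of these genes are not reported here. The receptor loci, dense stretches and promoter examples were chosen after their values were seen. Alternatives covered list length, strength limits, overlap, merging, ranking, window size and the set 2 P7 list.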

Additional observations from a re-analysis of the deposited data

How the results depend on the processing

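Every result rests on 1 pooled list per group, and leaving out a replicate was not run. No paired analysis was possible because each group has a single pooled list and the results come from no test. The causes of the shifts below were not tested, and the depth of the libraries, which limits how many regions can be called, was not given in any source used here.

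At equal list length, fetal-only strong regions numbered 1734, the Jaccard index was 0.639, and 6.54% of genes had more fetal-only and 4.40% more P7-only regions; the erythroid and megakaryocytic list stood at -1 (members with more fetal-only minus those with more P7-only) and Fli1 at -1. With all regions, 26534 were fetal-only and 14247 P7-only, 7.59% of fetal-only ones lay at gene ends, 19.01% and 38.4% were called in set 2, and 40.5% and 17.8% of genes leaned to fetus and P7. Ank1 then stood at -3, Fcgr3 and Fli1 at -1, and Jam2 and Pknox2 at 1.

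With the upper 25% as strong, 234 were fetal-only and 56 P7-only, of which 29.5% and 96.4% were called in set 2. At gene ends were 1.79% of the P7-only ones, and 1.09% and 0.274% of genes leaned to fetus and P7. Peaks of -log10 p of at least 5 gave a Jaccard index of 0.618 and 2.93% of genes leaning to P7, and merging within 100 bp 0.616 and 2.87%. Requiring 50% of a region to be covered gave 1521 P7-only regions, a Jaccard index of 0.587, 13.0% of fetal-only ones at gene ends, 40.6% of them in set 2, and 14.4% and 4.84% of genes. Ranked by fold, 6.81% of fetal-only regions lay at gene ends, 70.1% of P7-only ones were in set 2, and 11.8% and 4.23% of genes leaned.

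With the set 2 P7 list at equal length, 3192 were P7-only, the Jaccard index was 0.558, 9.49% of P7-only ones lay at gene ends, and the gene balance turned to 10.02% fetal against 14.2% P7. Lists then stood at -2 (fetal programme), -5 (HSC regulators), -1 (T and NK), -5 (myeloid), -4 (macrophage), -1 (erythroid), -3 (MHC), -2 (immediate early) and -1 (endothelial). Genes stood at -1 for Cd79a, Fcgr3, Trim71 and Zfpm1, at 1 for Ctnnd2, Ebf1 and Hjurp, and at 2 for Pcdh7 and Vit. Windows of 50 kb gave 19.1% and 5.91% of genes. Regions at gene ends alone gave 2.20% and 0.469%, with the fetal, macrophage and erythroid lists and Trim71 at -1. Of the other values for genes, 545 were stable and 328 moved without a reversal of sign. A value that fell to 0 was not counted as reversed.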

Other observations

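Of the P7-only strong regions, 62 (6.56%) were called in all 5 other postnatal HPC lists and in no HSC list, against 1.15% of shared strong P7 regions. The 4 strongest lay nearest Ppm1h, Ifng, Pknox2 and Il16. Ppm1h had a region at a -log10 p of 75.7 in P7 HPCs of set 1 and 85.6 in wild-type HPCs of set 2. A region 22.9 kb from Ifng, the gene of interferon gamma (chromosome 10, 118468835 to 118469589), stood at 66.4 in P7 HPCs of set 1, 299 and 133 in wild-type and knockout HPCs of set 2, and 208, 129 and 183 at P14, P21 and in the adult. The region inside Pknox2 stood at 60.4 in set 1 and 42.5 in set 2, and the one by Il16, a chemoattractant of T cells, at 53.7 and 128.

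Of the fetal-only strong regions, those nearest Hace1 (159) and Bmp2k (151) were among the strongest of the 428 that no other postnatal list held. Regions nearest Ica1 (110) and Cd36, a fatty acid transporter (82.1), were called in fetal HSCs as well and in no list after birth.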
